A study of Mus musculus with 8 samples.

Results

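MC654 and MC659 are tumor cell lines with the same genotype label, WT, and the comparison described here sets one against the other across all genes. Its members were 4 of the 8 RNA sequencing libraries of the study, 2 from each line, chosen by the line's name in the column headers of the count table. Both lines were established from tumors that methylcholanthrene (MCA), a chemical carcinogen, had induced in wild-type C57BL/6 mice. Each mouse had received 100 µg of MCA in 100 µl of peanut oil, tumors were taken after about 3 months, and the cells had been passaged at least 10 times before use. The other lines of the study, MC010 and MC011, carry the label KO for Irf8 and came from tumors raised in the same way. The age and sex of the mice were not given in the sources used here. The sources used here do not say which tumor or mouse each line came from, or that the lines came from separate ones, and nothing in the labels says that the 2 libraries of a line came from separate cultures, so the p-values below measure the spread between these libraries, which may be technical. They speak of these lines and not of wild-type tumors at large.

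MCA forms DNA adducts and raises sarcomas in mice, and each tumor carries its own mutations. Tumors of this kind are classic material of tumor immunology, because cells that display mutated peptides on MHC class I molecules can be rejected by T cells. Interferons act through transcription factors such as STAT2 and IRF9, which bind an interferon-stimulated response element in DNA and switch on antiviral genes, and interferon also raises the genes of MHC class I presentation. Fibroblast-like tumor cells further make collagens, matrix proteases, contractile proteins and chemokines, all of which are set in part by TGF-beta, Wnt and receptor kinase signals.

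The libraries of MC654 held 84534082 and 85113262 counts and those of MC659 88327110 and 90275160, within the range of 74063616 to 116206078 over all 8. The gene targeted in the study, Irf8, a transcription factor of blood cells, had 1 and 2 counts in MC654 and 1 and 0 in MC659, all at or under the floor of 3 counts taken for a library, so no fold is given. MC010 had 442 and 347 counts of it and MC011 32 and 10, more than the lines labelled WT. Counts are per gene and do not show exons, so they do not tell whether transcript of a disrupted allele was counted, and the gene checks no label here. Markers of fibroblastic cells were present in both lines. Vim, vimentin, had 4793 and 4532 CPM (counts per 1000000, with library sizes scaled by TMM) in the libraries of MC654, against 4754 and 4902 CPM in those of MC659, and Fn1, fibronectin, 8139 and 7779 CPM against 7878 and 8099 CPM. Of 11 fibroblast and mesenchymal markers tested, 1 was called higher in MC654 (Dcn) and 2 lower (Col1a1 and Fap). Of 15 hematopoietic markers 9, among them Itgam and Cd3e, were not in the table, and of the other 6 none was called, with a summed level of 10.3 and 10.1 CPM in MC654 against 11.4 and 11.9 CPM in MC659. Nearly all of that was Cd68, at 8.25 to 10.2 CPM, while Ptprc, the pan-leukocyte CD45, lay between 0.0118 and 0.0240 CPM. Pecam1, Epcam and Myod1, markers of endothelium, epithelium and muscle, were each under 0.3 CPM in all 4 libraries. Other epithelial markers were expressed. The 6 tested had a summed level of 129.4 and 129.1 CPM in MC654 against 114.6 and 124.8 CPM in MC659. None of 7 endothelial, 4 skeletal muscle and 3 adipocyte markers tested was called, while 2 of 6 epithelial markers (Krt8 and Krt14) and 1 of 2 Schwann cell markers (Ngfr) were called lower. The epithelial count was 1 without MC654 replicate 2 or either library of MC659.

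The lines were close to each other. Across genes, log2 CPM correlated between libraries of MC654 and MC659 with a Pearson's r of 0.9887 to 0.9893, beside 0.9924 and 0.9930 for the 2 libraries of one line, MC654 and MC659 in that order. Libraries of MC010 and MC011, which also share a label, correlated with an r of 0.9322 to 0.9351. Genes are not independent replicates, and these values are a description. Among the 10640 genes with a mean log2 CPM of at least 1 in the lines compared, 96.2% differed by no more than 0.59 on the log2 scale between MC654 and MC659, and 72.4% between MC010 and MC011. The median size of the log2 difference over these genes was 0.0942 for the first pair and 0.325 for the second.

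Of 16703 genes tested, 765 (4.58%) differed at an adjusted p under 0.05 from edgeR's quasi-likelihood test and by more than 0.59 on the log2 scale, the thresholds of the study. All differences are given as MC654 minus MC659. The split was uneven, with 194 genes (1.16%) higher and 571 (3.42%) lower in MC654. Of the lower genes 273 lay between 0.59 and 1 in size, 298 exceeded 1 and 89 exceeded 2. Of the higher genes the numbers were 105, 89 and 31. About as many of the lower genes were weakly expressed as not, since 281 had a mean log2 CPM under 1 and 290 at least 1. In 39 of the lower and 12 of the higher genes, the low line was at or under 3 counts in both libraries. The median difference over all genes tested was -0.0007, a value that TMM scaling holds near 0. The counts for gene lists below are to be read against these shares of all genes, 1.16% higher and 3.42% lower. A test against the fold threshold itself, which asks for a difference reliably above 0.59, left 57 genes higher and 187 lower.

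**Figure D1:**
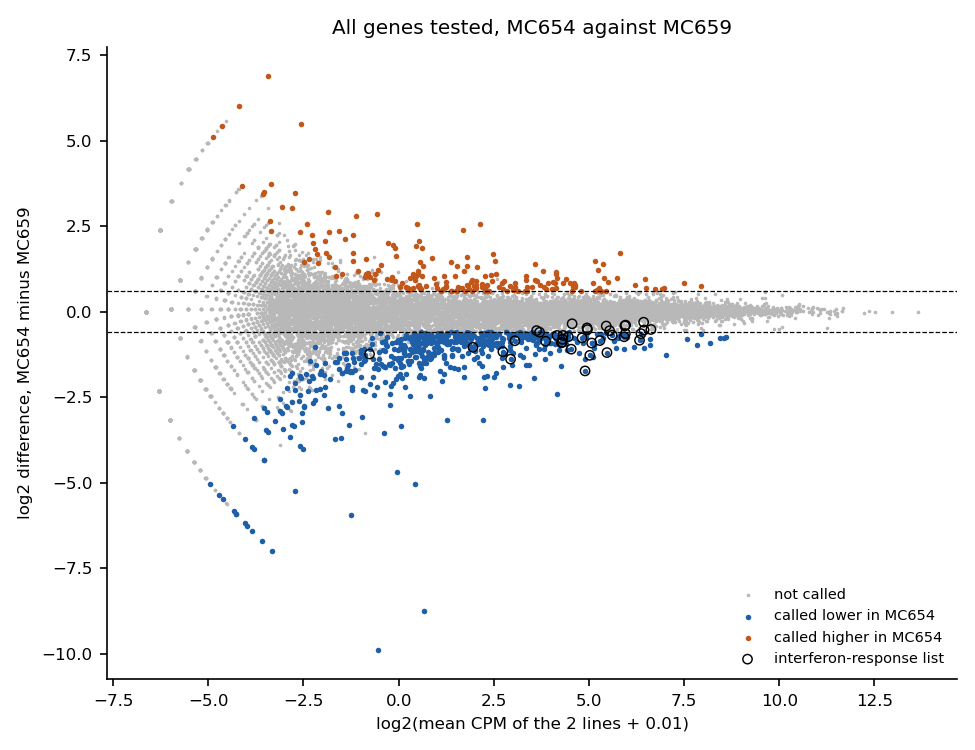
Difference between the lines against level, 1 point per gene tested. The x axis is log2 of the mean CPM of the lines plus 0.01, the y axis the log2 difference MC654 minus MC659, and dashed lines mark 0.59 in either direction. The 194 genes called higher are orange, the 571 called lower blue, and black rings mark the 36 interferon-response genes, which all lie below 0.

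Interferon-response genes were lower in MC654. Of 36 genes of the list, 24 were called lower and 0 higher, against 3.42% of all genes tested called lower, and the median difference of the list was -0.73. This list and those below were chosen with earlier results of these data known. Their counts and directions are therefore a description and not independent evidence. All 36 had a difference below 0, from -1.73 to -0.31, and 35 had an adjusted p under 0.05. The exception was Mx1, an antiviral GTPase with under 1 CPM in every library (log2 difference -1.24, adjusted p = 0.0876 from edgeR). The other uncalled members, such as Ifit1, which binds viral RNA, fell short of the fold threshold only. Its level was 80.9 and 81.6 CPM in MC654, below the 116 and 117 CPM of MC659, a difference of -0.52 (standard error 0.07, adjusted p = 4.0e-05 from edgeR). In bulk RNA, fewer cells that express a gene and less RNA per cell cannot be told apart. Of the hematopoietic markers given above, none was called, and their part in the result was not tested.

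Ifi44, an interferon-induced gene of the antiviral response (chr3:151730922-151749960 of mm10, minus strand), differed most within the list. It had 13.6 and 14.0 CPM in MC654 against 48.1 and 43.5 CPM in MC659, with both libraries of MC654 far below both of MC659. Its log2 difference was -1.73 (standard error 0.09, adjusted p = 3.1e-09 from edgeR). Ifit3, a partner of Ifit1 (chromosome 19, 34583531 to 34588731), had 19.1 and 18.9 CPM against 45.5 and 46.5 CPM, a difference of -1.28 (standard error 0.08). Rsad2, viperin, an enzyme that makes a chain-terminating nucleotide (chromosome 12, 26442746 to 26456452), had 26.0 and 27.9 CPM against 65.4 and 58.1 CPM. Iigp1, an interferon-inducible GTPase, had 3.97 and 4.51 CPM against 10.9 and 11.2 CPM. Zbp1, a sensor of Z-form nucleic acid that can start necroptosis, had 4.86 and 3.34 CPM against 8.33 and 10.1 CPM, and Trim30a, a ubiquitin ligase of the TRIM family, 14.5 and 15.0 CPM against 32.8 and 30.3 CPM. In none of these genes did the libraries of the lines overlap, and the adjusted p-values were 0.000201 or less (edgeR). The genes were named for the size of their differences, which favours such a lack of overlap, and its share over all genes is not given here. Oas2, Oasl2, Dhx58, Ifih1, Usp18, Isg15, Bst2 and the GTPases Gbp2, Gbp3, Gbp7, Igtp and Irgm2 were called lower as well.

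The transcription factors of the pathway were part of the pattern, with smaller differences. Irf7 and Stat2 were called, and Irf9 and Irf1 differed by -0.42 and -0.31, each with an adjusted p under 0.05 from edgeR and short of the fold threshold. Level in the lines labelled KO was lower still. All 36 genes had a higher mean in MC654 than in MC010 and in MC011, so MC654 lay between MC659 and those lines for each of them. The share of all genes tested with this order is not given here. The list was chosen with earlier results of these data known, so the order may be built into it. Ifi44 had a mean of 0.556 CPM in MC010 and 0.269 CPM in MC011, and Rsad2 3.97 and 0.221 CPM. Ifit3 and Ifit3b, the members of the Gbp and IRG families and Trim30a have near-identical relatives, so the split of their reads among relatives is uncertain.

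**Figure D2:**
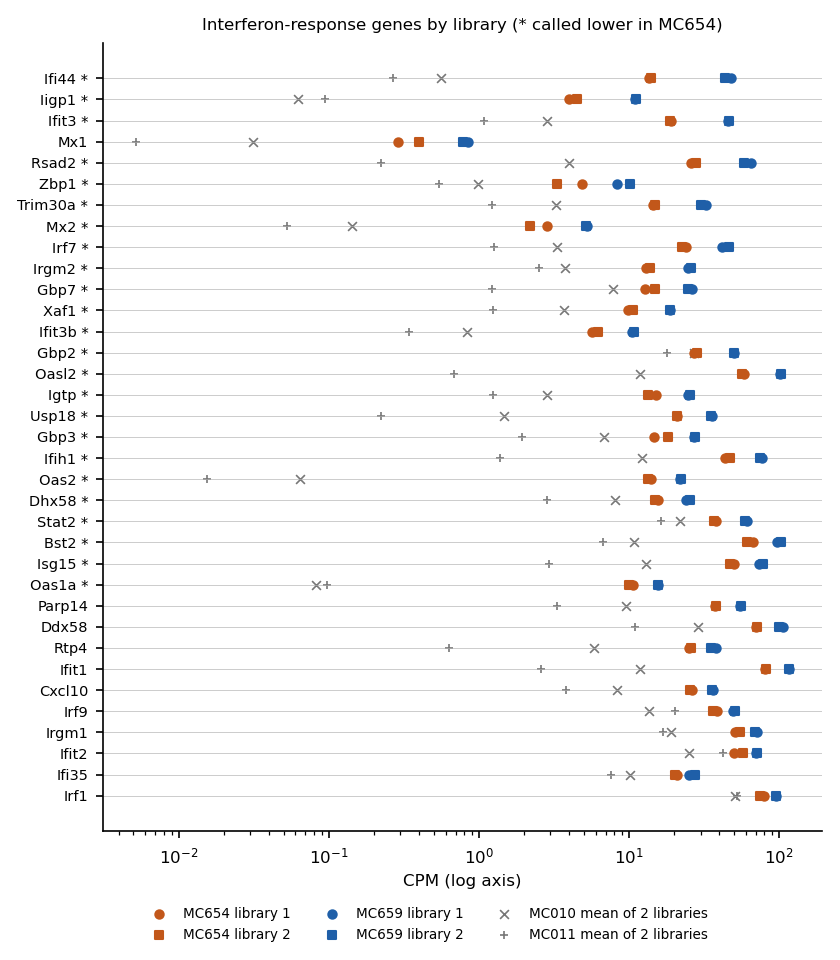
Level of 35 of the 36 interferon-response genes in CPM on a log axis, ordered by the difference between MC654 (orange) and MC659 (blue), with circles and squares for the 2 libraries of a line and grey crosses for the means of MC010 and MC011. Stars mark the 24 genes called lower in MC654. The orange points lie left of the blue ones in every row, from Ifi44 at 13.6 and 14.0 against 48.1 and 43.5 CPM down to Irf1.

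Promoter sequences were taken from RefSeq for GRCm38.p6, to show the element that interferon-activated factors bind. The motif searched for was GAAA, any 2 bases and GAAA again, on either strand, in the 250 bases before each gene start, and 2.98% of all 32851 promoters in the table held it. Of the 36 genes 26 had an entry, fewer than 80%, so the check of the motif over the list is void and no share is given for it. The promoters below are stretches of genes called lower, picked because they hold the motif. For some other genes looked up, Ifi44 among them, no match or no entry was found. The stretches are read on the strand of the gene, with the motif in capitals (seen as TTTC, 2 bases and TTTC where it lies on the other strand). Overlapping matches run together in Isg15.
Ifit3: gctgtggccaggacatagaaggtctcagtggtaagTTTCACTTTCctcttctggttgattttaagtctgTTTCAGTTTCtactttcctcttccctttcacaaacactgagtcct
Rsad2: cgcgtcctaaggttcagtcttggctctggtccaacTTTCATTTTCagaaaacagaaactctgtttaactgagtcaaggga
Isg15: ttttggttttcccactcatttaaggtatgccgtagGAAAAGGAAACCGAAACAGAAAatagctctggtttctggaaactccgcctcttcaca
Stat2: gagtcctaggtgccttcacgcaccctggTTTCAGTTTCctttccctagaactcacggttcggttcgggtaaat
These stretches lie at chr19:34583338-34583451 (plus strand), chr12:26456528-26456607 (minus), chr4:156200840-156200931 (minus) and chr10:128270248-128270320 (plus). The letters are the reference genome's, not these tumors', and a match is a description of the sequence only.

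Of 15 genes tested from the list of MHC class I and antigen processing, 7 were called lower in MC654 and 0 higher (46.7% lower, against 3.42% of all genes). All 15 differences were below 0, with a median of -0.76. The list also holds an immune checkpoint ligand, which is not a gene of presentation. H2-K1, a classical class I heavy chain (chromosome 17, 33996017 to 34000333), had 69.1 and 62.8 CPM in MC654 against 128 and 130 CPM in MC659, a difference of -0.97 (standard error 0.05, adjusted p = 6.1e-09 from edgeR). The non-classical H2-T23 had 18.8 and 17.3 CPM against 32.8 and 34.6 CPM. Tap1, a subunit of the peptide transporter, had 9.62 and 8.496 CPM against 19.04 and 19.4 CPM, and Psmb8, a subunit of the immunoproteasome, 2.44 and 2.39 CPM against 4.87 and 4.70 CPM. In each of these both libraries of MC654 lay below both of MC659, which naming called genes favours. H2-D1, at 163.5 and 144.6 CPM against 220 and 228 CPM, and B2m, the light chain, at 389 and 398 CPM against 508 and 496 CPM, differed by -0.54 and -0.35, with adjusted p-values of 4.3e-06 and 2.7e-05 from edgeR and under the fold threshold. Class I genes resemble each other and their reads can be misassigned. Tap1 overlaps Psmb9 on the opposite strand. Of the 15 genes, 8 had a higher mean in MC654 than in both lines labelled KO, and the share of all genes tested is not given here. The mean of H2-K1 was 101.5 CPM in MC010, higher than in MC654, and 12.7 CPM in MC011.

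Of 31 chemokines, cytokines and colony-stimulating factors tested, 8 were called lower and 1 higher (25.8% and 3.23%, against 3.42% and 1.16% of all genes), and 22 were not called. The median difference was -0.27, and without the fold threshold 9 were lower and 6 higher. Cxcl12, the stromal ligand of CXCR4 (chromosome 6, 117168535 to 117181367), had 151.8 and 155.5 CPM in MC654 against 305 and 299 CPM in MC659, a difference of -0.97 (standard error 0.04, adjusted p = 6.1e-10 from edgeR). Ccl2 and Ccl7, neighbouring genes on chromosome 11 whose products attract monocytes, had 9.64 and 9.50 CPM against 19 and 18.8 CPM, and 1.48 and 1.72 CPM against 4.74 and 5.10 CPM. Ccl9 had 3.05 and 3.38 CPM against 6.09 and 6.16 CPM. Libraries of the lines did not overlap in any of these 4 genes. They were named because they were called, which favours such a lack of overlap, and its share over all genes is not given here. The test against the fold threshold left 3 lower genes of the list and 0 higher. Both cytokines Il15 and Il18 were called lower from levels under 2 CPM in every library; without MC659 replicate 1 their adjusted p was 0.166 and 0.0647, and that of Il15 was also 0.116 without MC654 replicate 1 and 0.0611 without MC659 replicate 2 (edgeR). Csf1, the macrophage growth factor, had 603 and 585 CPM against 496 and 508 CPM, a difference of 0.24. Il33, an alarmin, had 129 and 133 CPM against 92.2 and 87.4 CPM, a difference of 0.55 (adjusted p = 2.1e-06 from edgeR), just under the fold threshold.

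Of 35 collagen chains tested, 6 were called lower in MC654 and 0 higher (17.1% lower, against 3.42% of all genes), and 29 were not called. The median difference was -0.44, and without the fold threshold 9 chains were lower and 3 higher at an adjusted p under 0.05 (edgeR). All 3 chains of collagen VI present at over 40 CPM, which form the microfibrils around cells, were among them. Col6a3 (chromosome 1, 90765923 to 90843971) had 77.9 and 74.1 CPM in MC654 against 182.5 and 184.5 CPM in MC659, a difference of -1.27 (standard error 0.05, adjusted p = 1.7e-10 from edgeR). Col6a2 had 49.7 and 45.2 CPM against 94.3 and 102 CPM, and Col6a1 149 and 130 CPM against 236 and 249 CPM. Col1a1, the main chain of collagen I, had 301 and 251 CPM against 457 and 486 CPM, a difference of -0.77, and its partner Col1a2 had 960 and 876 CPM against 1219 and 1271 CPM, a difference of -0.44 that was under the fold threshold. Col5a1 and Col5a2 differed by -0.10 and -0.02, with adjusted p-values of 0.321 and 0.866 (edgeR). Col15a1 was called from 0 to 14 counts a library and lost its call in the fits without MC654 replicate 1 (adjusted p = 0.252) or without either library of MC659 (0.122 and 0.148), and in the fit of the 4 libraries alone (0.0534, edgeR).

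Of 39 matricellular proteins, elastic fibre genes and proteoglycans, 6 were called lower and 2 higher (15.4% and 5.13%, against 3.42% and 1.16% of all genes). The test against the fold threshold left 3 lower and 1 higher. Acan and Wisp2, among the lower, lost their calls in some fits with 1 library left out. Their differences there were -0.83 to -1.36 and -1.04 to -1.26. Wisp2 also lost its call in the fit of the 4 libraries alone (adjusted p = 0.0525, edgeR). Postn, periostin, had 6.32 and 7.73 CPM in MC654 against 16.1 and 17.3 CPM in MC659, a difference of -1.25 (standard error 0.10). Dcn, decorin, a small proteoglycan that binds collagen, went the other way, with 22.6 and 24.5 CPM against 12.4 and 11.4 CPM and a difference of 0.99 (standard error 0.08, adjusted p = 2.5e-07 from edgeR). Has3, a hyaluronan synthase, was the other higher gene, and its adjusted p was 0.222 without MC654 replicate 1, 0.322 without MC659 replicate 1, where 1 higher gene of the list was left, and 0.0829 in the fit of the 4 libraries alone (edgeR). Among 32 matrix proteases and inhibitors, 3 were lower and 2 higher (9.38% and 6.25%, against the same shares of all genes). Adamts5, an aggrecan-cleaving protease (chromosome 16, 85858170 to 85901125), had 5.13 and 6.20 CPM against 30.8 and 29.2 CPM, a 5.28-fold difference. Plau, urokinase, an activator of plasminogen, had 28.3 and 29.5 CPM against 15.8 and 16.4 CPM, a difference of 0.84, higher in both libraries of MC654. Mmp2, Mmp14 and Timp2, at over 300 CPM each in both lines, were not called.

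Contractile genes gave 4 calls of 16, all lower (25.0%, against 3.42% of all genes). Acta2, smooth muscle actin and a marker of myofibroblasts (chromosome 19, 34241090 to 34255336), had 299 and 282 CPM in MC654 against 472 and 504 CPM in MC659, a difference of -0.75 (standard error 0.05, adjusted p = 3.1e-08 from edgeR). Myl9, a myosin light chain, had 8.83 and 8.98 CPM against 15.9 and 16.8 CPM, and Lmod1, an actin nucleator of smooth muscle, 0.0360 and 0.0588 CPM against 0.679 and 0.578 CPM. Tagln, Tpm1, Cald1 and Cnn2 differed by -0.23 to -0.07 and were not called. Cnn1, calponin, was the fourth call and lost it in the fit without any 1 of the 4 libraries (adjusted p from 0.0540 to 0.218, edgeR) and with DESeq2 (0.0511). Tgfbi, a matrix protein named for its induction by TGF-beta, had 58.7 and 54.7 CPM against 118 and 119 CPM. Of 46 genes of TGF-beta and BMP signalling, 3 were higher and 2 lower (6.52% and 4.35%, against 1.16% and 3.42% of all genes). The median difference was -0.04, and the test against the fold threshold left 1 higher and 2 lower. The 3 called higher were Bmp2, Grem1, a secreted BMP antagonist, and Ltbp2, a microfibril protein. Grem1 (chromosome 2, 113746164 to 113758646) had 226 and 235 CPM against 130 and 127 CPM, and Ltbp2 325 and 295 CPM against 179 and 188 CPM.

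**Figure D3:**
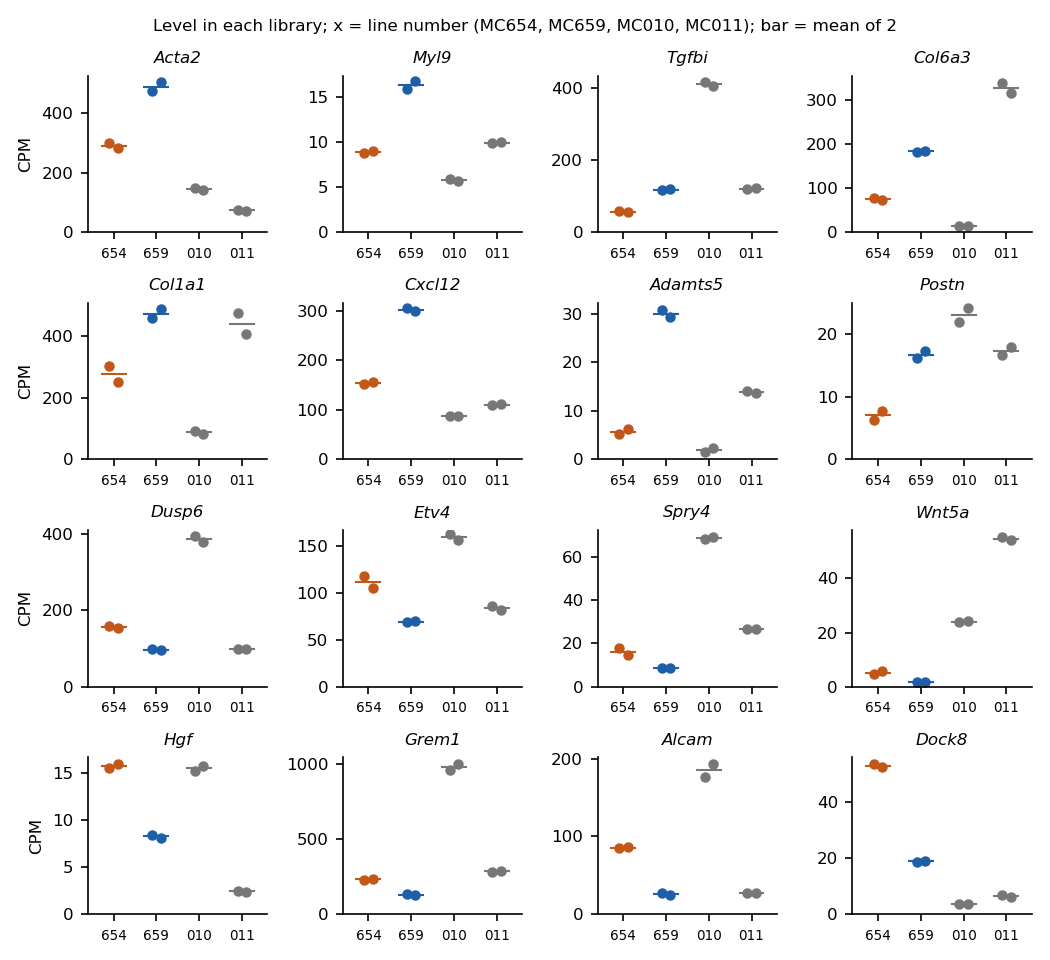
Level of 16 genes in CPM in each library, with the 2 libraries of a line as points and their mean as a bar, for MC654 (orange), MC659 (blue) and, in grey, MC010 and MC011. The first 8 genes are lower in MC654 than in MC659, such as Acta2 at 299 and 282 against 472 and 504 CPM, and the last 8 higher, such as Alcam at 84.7 and 86.2 against 27.4 and 24.9 CPM.

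Genes induced by ERK signalling, the kinase arm below RAS and growth factor receptors, included some that were higher in MC654. Of 25 tested, 4 were called higher and 0 lower, against 1.16% of all genes called higher, and the median difference was 0.28. Dusp6, a phosphatase that switches ERK off (chromosome 10, 99263231 to 99267489), had 159.6 and 152.6 CPM in MC654 against 97.8 and 94.8 CPM in MC659, a difference of 0.70 (standard error 0.05, adjusted p = 3.1e-08 from edgeR). Etv4, an ETS-family transcription factor, had 118 and 105.5 CPM against 68.6 and 70.3 CPM. Spry4, a feedback inhibitor of receptor signals, had 17.9 and 14.5 CPM against 8.52 and 8.83 CPM, and Egr2, an early response factor, 13.5 and 12.3 CPM against 7.70 and 8.04 CPM. The libraries of the lines did not overlap in these 4 genes. They were named because they were called, which favours such a lack of overlap, and its share over all genes is not given here. The test against the fold threshold left 1 higher gene of the list and 0 lower. Of all 25 members, 18 had a difference above 0 and 7 below, 13 and 4 of them with an adjusted p under 0.05 (edgeR). Egr1 and Myc, abundant members that were not called, had differences of -0.03 and -0.16. The fits without MC654 replicate 1 and without MC659 replicate 2 each called 1 member of the list lower.

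Ligands and receptors of other pathways differed gene by gene. Of 47 Wnt ligands, receptors and antagonists, 4 were higher and 2 lower (8.51% and 4.26%, against 1.16% and 3.42% of all genes). Wnt5a, a ligand that mostly acts apart from beta-catenin (chromosome 14, 28504750 to 28527448), had 4.55 and 5.85 CPM against 1.79 and 1.62 CPM, a difference of 1.61 (standard error 0.12, adjusted p = 1.6e-07 from edgeR). Lgr6, an R-spondin receptor, had 13.4 and 14.2 CPM against 6.54 and 6.76 CPM, Fzd3, a Wnt receptor, 7.14 and 7.12 CPM against 4.19 and 3.49 CPM, and Dkk2, a Wnt antagonist, 8.07 and 8.86 CPM against 4.91 and 4.603 CPM. Dkk3 was lower, at 1.64 and 1.39 CPM against 3.83 and 3.59 CPM. Wnt9a was the other lower gene, a call lost without MC654 replicate 2 (adjusted p = 0.178) and without replicate 1 or 2 of MC659 (0.0531 and 0.178, edgeR). The lower count of the list was 1 without replicate 2 of either line. The most abundant receptors, Lrp6, Lrp5, Fzd7 and Fzd2, were not called.

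Of 50 growth factors, their receptors and binding proteins, 2 were higher and 5 lower (4.00% and 10.0%, against 1.16% and 3.42% of all genes). Hgf, the ligand of MET, had 15.5 and 15.97 CPM in MC654 against 8.41 and 8.12 CPM in MC659. Igfbp5, a binding protein of insulin-like growth factors, had 0.204 and 0.176 CPM against 0.770 and 0.500 CPM. The lower genes numbered 3 without MC654 replicate 1. The higher genes numbered 1 without MC654 replicate 2 or without MC659 replicate 1, and the adjusted p of Fgf10, the other higher gene, was then 0.165 and 0.0634, beside 0.0717 without MC659 replicate 2 (edgeR). In the fit of the 4 libraries alone it was 0.0855, with 1 gene of the list higher and 4 lower. Axl, Fgfr1, Ddr2 and Fgf7, the most abundant of the list that were not called, differed by -0.11 to -0.01. Of 57 axon guidance genes, 7 were higher and 5 lower (12.3% and 8.77%, against 1.16% and 3.42% of all genes). The test against the fold threshold left 3 higher and 0 lower. Fewer were called in both directions when either library of MC659 was left out. Plxna4, called higher, lost its call in the fit of the 4 libraries alone (adjusted p = 0.0671, edgeR). Unc5b, a netrin receptor, had 58.3 and 53.6 CPM in MC654 against 27.4 and 29.8 CPM in MC659. Sema6d, a transmembrane semaphorin, had 1.14 and 1.49 CPM against 0.249 and 0.400 CPM, and Sema6a, another, lay in the opposite direction with 1.16 and 1.49 CPM against 2.67 and 2.89 CPM. Of 15 Notch genes, 1 was higher and 2 lower (6.67% and 13.3%, against 1.16% and 3.42% of all genes). The test against the fold threshold left 0 in either direction. Jag2, a ligand, had 5.22 and 4.52 CPM against 7.83 and 8.95 CPM. Notch3 and Dll1, receptor and ligand at under 1 CPM, were called lower and higher. Dll1 lost its call without any 1 of the 4 libraries (adjusted p up to 0.125), which left 0 higher genes, and Notch3 without replicate 2 of MC654 (0.142) or of MC659 (0.127, edgeR). The lower genes then numbered 1, and 3 without MC654 replicate 1.

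**Figure D4:**
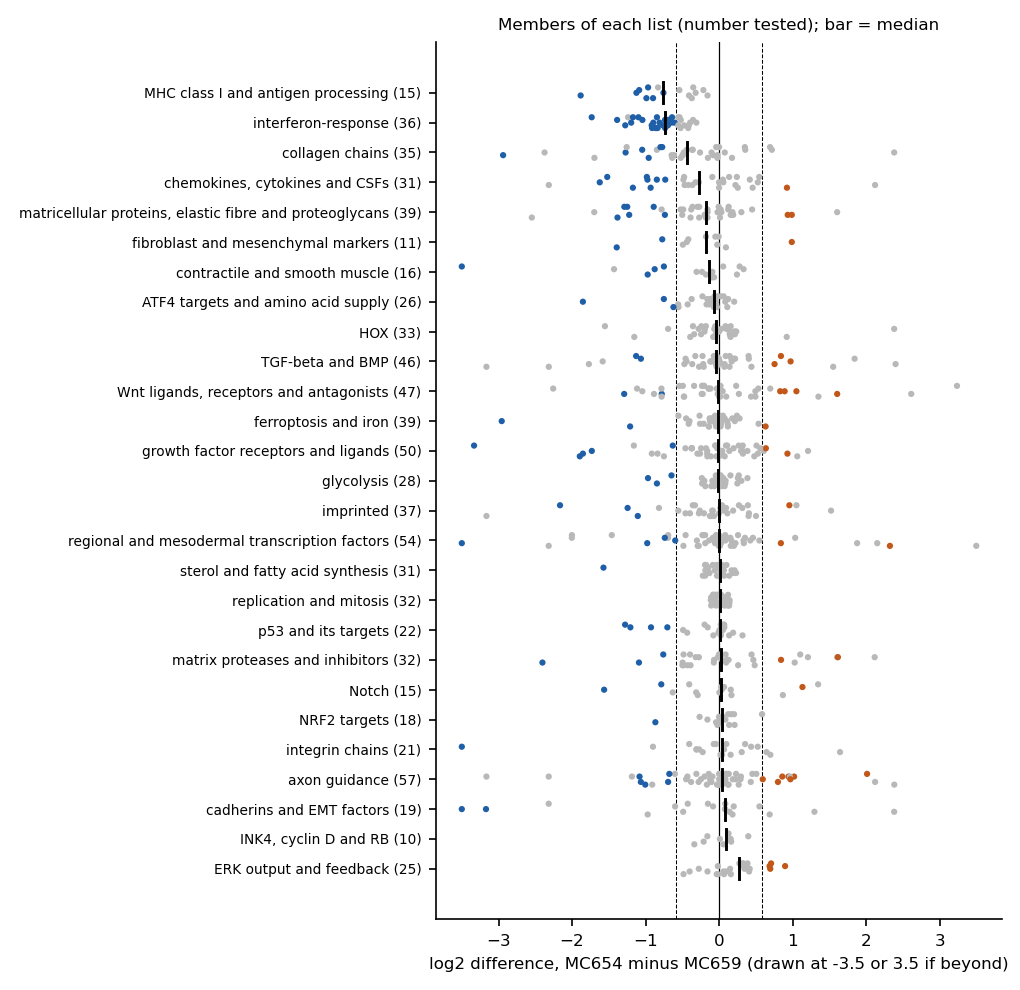
Log2 difference MC654 minus MC659 of each tested member of the 27 lists with at least 10 members tested, ordered by the median (black bar), with called genes in blue (lower) and orange (higher), others in grey, dashed lines at 0.59 in either direction and points beyond 3.5 in size drawn at that edge. The MHC class I and interferon-response lists have the lowest medians, -0.76 and -0.73, and the ERK list the highest, 0.28.

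Beyond the lists, the genes with the largest differences among those with a mean log2 CPM of at least 1 had varied roles. AW551984 (chromosome 9, 39587396 to 39604403), had 0.732 and 1.12 CPM in MC654 against 8.24 and 8.40 CPM in MC659, the lowest difference of these, -3.17 (standard error 0.15, adjusted p = 7.5e-10 from edgeR). Mn1, a transcriptional cofactor, had 1.97 and 1.41 CPM against 7.73 and 8.28 CPM. H19, a maternally expressed imprinted RNA, had 3.46 and 3.04 CPM against 14.7 and 14.3 CPM, and Cdkn1c, an imprinted inhibitor of cyclin-dependent kinases in the same chromosome 7 cluster, 4.76 and 3.46 CPM against 10.0 and 9.46 CPM. Of 37 imprinted genes, 3 were lower and 1, Grb10, higher. Ripk3, the kinase of necroptosis (chromosome 14, 55784995 to 55788865), had 2.22 and 1.78 CPM against 7.74 and 7.28 CPM, and Unc93b1, the escort of nucleic acid-sensing Toll-like receptors, 4.86 and 4.84 CPM against 18.6 and 18.4 CPM. Ifi27l2a, an interferon-induced gene outside the list, had 2.39 and 2.39 CPM against 9.37 and 8.64 CPM. Arhgef5, Galnt15, Dysf and Tlcd2 made up the remaining lower genes, with differences from -2.15 to -1.80.

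Among the genes that were higher, Crmp1, a protein of neurite growth (chromosome 5, 37241940 to 37292133), had 7.70 and 7.21 CPM in MC654 against 1.01 and 1.52 CPM in MC659, a difference of 2.56 (standard error 0.16, adjusted p = 1.9e-08 from edgeR). Nefl, a neurofilament, had 5.63 and 5.28 CPM against 0.974 and 1.09 CPM. Alcam, an adhesion molecule of the immunoglobulin family and ligand of CD6 (chromosome 16, 52248996 to 52454074), was the most abundant of the group, at 84.7 and 86.2 CPM against 27.4 and 24.9 CPM, a difference of 1.71 (standard error 0.06, adjusted p = 9.3e-11 from edgeR). Dock8, an exchange factor for CDC42, had 53.5 and 52.3 CPM against 18.7 and 18.99 CPM, and Npr3, the clearance receptor of natriuretic peptides, 17.3 and 17.4 CPM against 6.65 and 6.59 CPM. Slc16a11, a monocarboxylate carrier, had 65.1 and 53.6 CPM against 22.2 and 23.4 CPM. Zfp618, Sdk1, C530008M17Rik, AI467606 and Sdcbp2 had differences from 1.32 to 1.70.

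Genes found in one line only were rare. With at most 3 counts in both libraries of one line and at least 1 CPM in both libraries of the other, 0 genes were found only in MC654 and 2 only in MC659, both on chromosome 15. Scn8a, a voltage-gated sodium channel (100869858 to 101045938), had 0 and 1 counts in MC654 against 3.18 and 3.16 CPM in MC659, which is at least 88.9-fold higher when MC654 is set to 3 counts a library, the floor. Dbx2, a homeobox gene of the neural tube (95623563 to 95655960), had 0 and 0 counts and 1.22 and 1.47 CPM, at least 37.7-fold higher. Some adhesion genes also had a low level in MC654, above that limit. Cdh13, a cadherin without a cytoplasmic part, had 0.0960 and 0.0588 CPM against 2.15 and 3.01 CPM, Cdh3, P-cadherin, 0.408 and 0.541 CPM against 3.90 and 4.67 CPM, and Itga11, a collagen-binding integrin chain, 0.0600 and 0.0824 CPM against 1.62 and 2.10 CPM. Of 19 cadherins and EMT factors tested, Cdh13 and Cdh3 were the 2 called (10.5% lower, against 3.42% of all genes). No other of the 21 integrin chains tested was called, and Cdh2, N-cadherin, with Zeb1, Zeb2 and Snai1, factors of the mesenchymal state, differed by -0.15 to 0.20.

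None of 32 genes of replication and mitosis was called, and their differences lay between -0.11 and 0.14. Mki67 had 539 and 584 CPM in MC654 against 584 and 551 CPM in MC659, so the libraries overlapped. The 33 HOX genes tested, which record body position, gave 0 calls, and Hoxa9, at 29.2 and 28.7 CPM against 29.1 and 29.0 CPM, was not told apart. Among them 4 had an adjusted p under 0.05 without passing the fold threshold, and 1 was called in the fit without MC654 replicate 2. Regional and mesodermal transcription factors held some calls, with 4 of 54 lower and 2 higher (7.41% and 3.70%, against 3.42% and 1.16% of all genes). Osr1 had 8.64 and 7.87 CPM against 15.5 and 17.0 CPM, and Foxc2 27.0 and 24.6 CPM against 14.4 and 14.5 CPM. The lower count was 2 without MC654 replicate 1 or without MC659 replicate 1, and the higher count 1 without replicate 2 of either line and 3 without MC659 replicate 1.

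The study followed ferroptosis, cell death by iron-dependent lipid peroxidation. Of 39 genes of ferroptosis and iron handling, 1 was higher and 2 lower in MC654 (2.56% and 5.13%, against 1.16% and 3.42% of all genes), and the median difference was -0.02. At an adjusted p under 0.05 without the fold threshold, 5 were higher and 6 lower (edgeR). Acsl6, which activates fatty acids, had 9.07 and 10.3 CPM in MC654 against 5.94 and 6.56 CPM in MC659, a difference of 0.63, which was 0.53 without MC654 replicate 2 and 0.56 without MC659 replicate 1, both under the fold threshold. Slc40a1, ferroportin, the exporter of iron, had 2.12 and 2.10 CPM against 4.86 and 4.90 CPM. Cbs had under 0.4 CPM in every library, and its adjusted p was 0.0722 without MC654 replicate 2 and 0.0966 without MC659 replicate 1, which left 1 lower gene (edgeR). Ferritin genes Fth1 and Ftl1, at 1020 to 2210 CPM, were not called. Of 22 genes of p53 and its targets, 4 were lower and 0 higher, 18.2% against the 3.42% of all genes, with a median of 0.01. Perp, 1 of the 4, lost its call in the fit of the 4 libraries alone (adjusted p = 0.0985, edgeR), which left 3 lower. It also lost the call without MC654 replicate 1 (a difference of -0.95) and without MC659 replicate 1 (-0.83). The test against the fold threshold left 0 lower genes of this list. Pmaip1, the BH3-only protein NOXA, had 2.39 and 2.11 CPM against 4.04 and 4.49 CPM, and Fas, the death receptor, 0.768 and 0.624 CPM against 1.68 and 1.70 CPM, while Mdm2, Mdm4 and Ei24 differed by 0.02 to 0.07. None of 10 genes of INK4, cyclin D and RB was called. NRF2 targets gave 1 call of 18, Gsta4, and glycolysis genes 3 of 28, with Gapdh, Pkm, Eno1 and Ldha not called. These calls were all lower (5.56% and 10.7%, against 3.42% of all genes), and the test against the fold threshold left 0 of them. Of 31 genes of sterol and fatty acid synthesis, 1 was called lower and 0 higher, and the median difference was 0.01. Of 26 genes of the ATF4 response, Cth, Fgf21 and Vldlr were lower (11.5%, against 3.42% of all genes). The call of Fgf21 was lost without MC659 replicate 1, where its difference was -1.68. That of Vldlr was lost without MC654 replicate 1, with a difference of -0.54, under the fold threshold.

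No autosome was shifted as a whole. The median difference per autosome lay between -0.04 (chromosome 13) and 0.03 (chromosome 8), and the percentage of genes called between 3.21 (chromosome 16) and 5.58 (chromosome 4). In 202 windows of 50 neighbouring genes with a mean log2 CPM of at least 1, the median ranged from -0.09 to 0.08, and 0 windows exceeded 0.3 in size. Between MC010 and MC011 the same windows ranged from -0.80 to 0.62, and 26 exceeded 0.3. This is a description without a test. Medians over many genes move little when 4.58% of genes are called, so they do not tell whether called genes lie together. Runs of called neighbours are given under the other observations. The sex chromosomes were not analysed here.

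**Figure D5:**
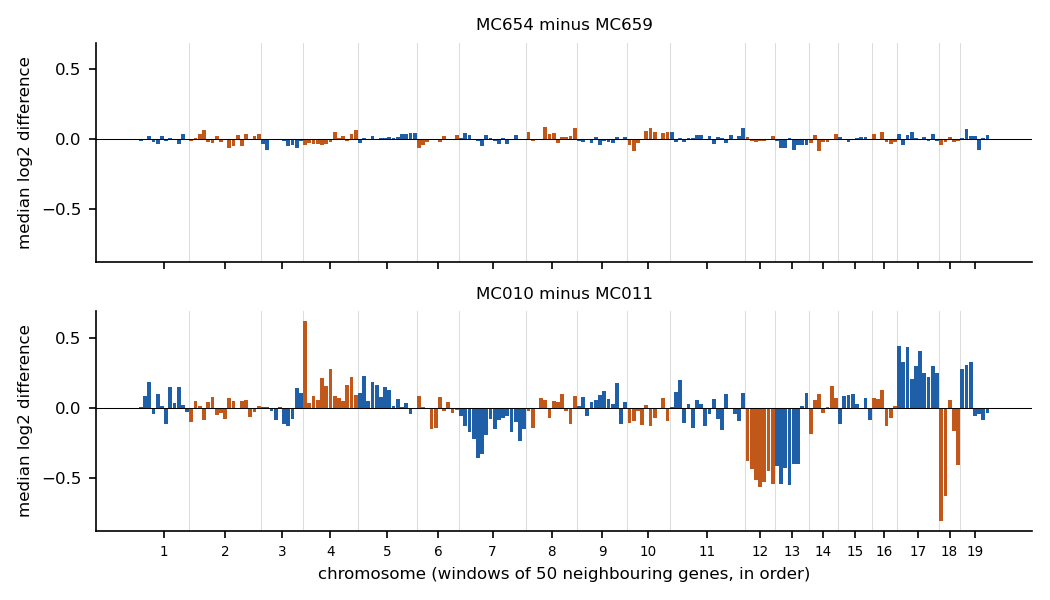
Median log2 difference in each of 202 windows of 50 neighbouring genes, in order along chromosomes 1 to 19, for MC654 minus MC659 (top) and MC010 minus MC011 (bottom), with the same y axis and colours that alternate between chromosomes. The bars of the top panel stay between -0.09 and 0.08, and those of the bottom panel reach -0.80 and 0.62.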

How the data were processed

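RNA of 4 tumor cell lines was sequenced in 8 libraries from a stranded mRNA kit. Per the labels, the submitters' processing notes name STAR 2.7.3a, HTSeq 0.11.2, DESeq2 and GRCm38.p6 (mm10). The authors deposited raw counts per gene and a signal, the count divided by 1 size factor per library. Columns of their own comparison give means, fold changes in log2 with errors, Wald statistics and p-values, and neither these nor the signal were used. Whether HTSeq counted by strand is not given in the sources used here, and reads shared by near-identical genes may be lost or split. Each of the 18768 genes in the table had at least 20 counts over the 8 libraries.

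Counts were tested with edgeR 4.0.16 (R 4.3.3): filterByExpr by line, TMM scaling, a robust quasi-likelihood fit with 1 group per line on all 8 libraries, and Benjamini-Hochberg adjustment over 16703 genes. CPM use TMM-scaled library sizes, and standard errors follow from the F statistic. Genes were called at an adjusted p under 0.05 and a log2 difference above 0.59 in size. The members and gene lists were chosen with earlier results of these data known. Named were Irf8, the 12 largest called differences in each direction at a mean log2 CPM of at least 1, up to 6 called and 4 uncalled members per list, and genes found in one line only. Interferon members outside that limit are named from the list, after their values were seen. A few members of the lists are not reported here by name, and counts over the lists include them. The lists of hematopoietic, endothelial, epithelial, muscle, adipocyte, Schwann cell and fibroblast markers checked the labels.

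On simulated counts the fit recovered 200 of 200 changed genes (100 at 2-fold and 100 at 4-fold) with 3 false calls among 16387 genes. Every simulated gene had the same dispersion (0.00258), and changes were placed only in genes at 1 CPM or more. The simulation therefore checks that the fit runs as meant. It does not cover genes with a larger spread or calls in weakly expressed genes. Replicates of a line differed beyond counting noise (chi-square per degree of freedom 7.60 to 13.1), so none was counted as a duplicate. With 2 libraries against 2, an exact permutation test of a single gene could not go below 0.333. A count of 3 was the floor of a library, for counting error only. Alternatives were DESeq2 1.42.0, upper-quartile scaling, no filter, a filter by label, the 4 libraries alone, the replicate number as a block, a test against the fold threshold (glmTreat), no fold threshold and each library left out.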

Additional observations from a re-analysis of the deposited data

How the results depend on the processing

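The counts of genes called higher (194) and lower (571) and of interferon-response genes called lower (24) stayed within 1.5 times under DESeq2, upper-quartile scaling, no filter on low counts, a filter by genotype label and the 4 libraries alone. With glmTreat against a log2 difference of 0.59, 57 genes were higher, 187 lower and 11 of the interferon-response list lower. With no threshold on the fold change, 823 were higher, 1352 lower and 35 of the list lower. With 1 library left out, the genes called higher numbered 139 to 173, those called lower 431 to 525 and the interferon-response genes 23 to 24; where a line then has 1 library, it is assumed to vary like the others. With the replicate number as a block, 197 genes were higher, 581 lower and 24 of the list lower, 189 and 560 of them also called without the block. The replicate numbers did not pair the libraries, since deviations of same-numbered libraries correlated between -0.0318 and 0.0450. Of 121 called genes followed by name, 0 changed direction under the 12 alternatives, 98 kept their call under all but glmTreat, and 46 lost it under glmTreat. The cause was not tested. Depth limits the weakly expressed genes most, and 281 of the lower and 87 of the higher calls had a mean log2 CPM under 1.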

Other observations

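Called genes that neighbour each other on the chromosome were looked for after the values were seen, as at least 3 genes called in one direction with at most 1 other tested gene between them. There were 14 such runs of lower genes, with 48 genes, and 4 of higher genes, with 12. Several runs of lower genes hold relatives that are known as interferon-induced. On chromosome 1 they held Ifi207, Ifi204, Mndal, Ifi203 and Ifi205, sensors of cytosolic DNA and their relatives (173723427 to 174031810, differences from -2.19 to -0.78), and Sp110, Sp140 and Sp100. On chromosome 7 lay Trim34a, Trim12a, Trim12c, Trim30a and Trim30d (-1.20 to -0.72), on chromosome 3 Gbp5, Gbp7, Gbp3 and Gbp2 (-1.35 to -0.73), and on chromosome 17 H2-Q4, H2-Q6 and H2-Q7 (-1.88 to -1.12). Neighbouring members of these families resemble each other, so their reads can be shared and they are not independent. Tap1, Psmb8 and Tap2, genes of antigen processing on chromosome 17, formed another run (-1.09 to -0.76). Other runs included Acot2, Acot1 and Acot6 on chromosome 12, acyl-CoA thioesterases (-1.33 to -0.995), and Mamstr, Car11 and Dbp on chromosome 7.

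Processed pseudogenes, 1018 of them tested, had a median difference of 0.23, against -0.01 for protein-coding genes, with 2 called higher and 2 lower. The 12 genes of the mitochondrial genome had a median of 0.46 and 0 were called. They held 0.0200% and 0.0241% of the counts in MC654 and 0.0154% and 0.0208% in MC659, so the libraries of the lines overlapped. Krt8 and Krt18, keratins that pair in filaments, differed in opposite directions, by -0.90 (called) and 0.42 (adjusted p = 4.5e-05 from edgeR, under the fold threshold).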
